A study of Ovis aries with 6 samples.

Results

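Among the 2455 long noncoding RNAs (lncRNAs) measured in sheep ovary, 76 were assembled in the study itself and had a value above 0 in every one of the 6 libraries. They were chosen by 2 criteria: an identifier beginning with MSTRG, which marks 2285 assembled lncRNAs, and an FPKM above 0 in all 6 columns. FPKM counts the fragments of a transcript scaled by its length and by the library's total, so levels of different lncRNAs are given per length. The lengths used for the assembled lncRNAs are not known here, so comparisons between lncRNAs rest on lengths that could not be checked. The 76 are 3.1% of all lncRNAs in the table and 3.33% of the assembled ones. The libraries came from ovaries of Hu sheep, a prolific breed of China, and of Mongolian sheep, which usually bear a single lamb, with 3 libraries per breed, all taken in estrus. The labels give no genotype, age or treatment, and do not say whether each library is a separate animal, so the spread between libraries may be technical. The series title names exosomes, while each sample is labelled as ovary. The depth behind the FPKM values is unknown.

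lncRNAs are transcripts without a long open reading frame. Many act in the nucleus, where they guide or hold chromatin proteins, some bind microRNAs or proteins in the cytoplasm, and most are held at lower levels and in fewer cell types than messenger RNAs. Assemblers build such transcripts from the sequencing reads, and MSTRG is the prefix that the merge step of StringTie gives to its loci by default. Which assembler made these transcripts is not stated in the labels or files. The files pair none of the 76 identifiers with a symbol, and no position, sequence or function is known for them here. They are therefore described by their levels and their spread. In bulk tissue, fewer cells that hold a transcript and less of it per cell cannot be told apart.

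Being listed in every library was rare. Of the 2285 assembled lncRNAs, 256 were at 0 in all 6 columns, 1277 (55.9%) were above 0 in a single library and 73 in 5 libraries. Of 170 Ensembl lncRNAs, 15 (8.82%) were above 0 in all 6. Listed lncRNAs numbered 213, 332 and 1304 in Hu 1, 2 and 3 and 686, 725 and 789 in Mongolian 1, 2 and 3, so that the same 76 made up 35.7%, 22.9% and 5.83% of the listed lncRNAs in Hu and 11.1%, 10.5% and 9.63% in Mongolian. Hu 1 set the size of the group: 49 of the 73 lncRNAs listed in 5 libraries were missing there, and without Hu 1 the number listed in all remaining libraries was 125 instead of 76. Defining markers of stroma were at 665 to 860.1 FPKM in sum in Hu and 635 to 746 in Mongolian, and 5 of 5 were listed, whereas only 4 of 8 granulosa markers were listed by symbol, at 26.5 to 192 FPKM in Hu and 50.02 to 64.1 in Mongolian. The 2 oocyte markers listed reached 0.324 FPKM in Hu and 0.888 in Mongolian. The sums of theca and steroid markers and of epithelial markers were highest in Hu 3 and Mongolian 3 within their breeds. Theca and steroid markers summed to 47.8, 16.7 and 87.9 FPKM in Hu 1, 2 and 3, against 24.8, 19.8 and 104.6 in Mongolian 1, 2 and 3. Epithelial markers summed to 0.768, 0 and 10.99 in Hu, against 3.55, 3.86 and 29.4 in Mongolian. The sums that follow were not highest in both of these libraries. Smooth muscle markers summed to 366, 404 and 805 FPKM in Hu, against 620.1, 446 and 597 in Mongolian. Leukocyte markers summed to 6.54, 20.3 and 11.5 FPKM in Hu, against 11.4, 35.3 and 7.9 in Mongolian. Endothelial markers summed to 14.3, 5.91 and 18.8 FPKM in Hu, against 5.25, 8 and 5.14 in Mongolian. The granulosa sum was highest in Hu 1 and Mongolian 3, and the stroma sum in Hu 2 and Mongolian 1. The part of cell makeup in the levels of the 76 was not tested.

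A trio of assembled lncRNAs stood above all others in every library. MSTRG.45400 had 11551, 24029 and 54141 FPKM in Hu 1, 2 and 3, against 11501, 32193 and 19701 in Mongolian 1, 2 and 3. The lowest values, those of Hu 1 and Mongolian 1, were nearly equal, the highest belonged to Hu 3, and the breeds overlapped. MSTRG.14871 had 12069, 10721 and 10436 FPKM in Hu, against 11677, 11869 and 9052 in Mongolian. It varied least of the 76, with every library within 1.33-fold of every other. MSTRG.23158 had 5539, 7483 and 12243 FPKM in Hu, against 6666, 9552 and 4356 in Mongolian, again with overlap and with Hu 3 highest. These 3 lncRNAs took ranks 1, 2 and 3 of all lncRNAs in each of the 6 libraries. Their order changed: MSTRG.14871 led in Hu 1 and in Mongolian 1, and MSTRG.45400 led in the other 4 libraries. The ratio of MSTRG.45400 to MSTRG.14871 was 0.957, 2.24 and 5.19 in Hu, against 0.985, 2.71 and 2.18 in Mongolian.

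**Figure D1:**
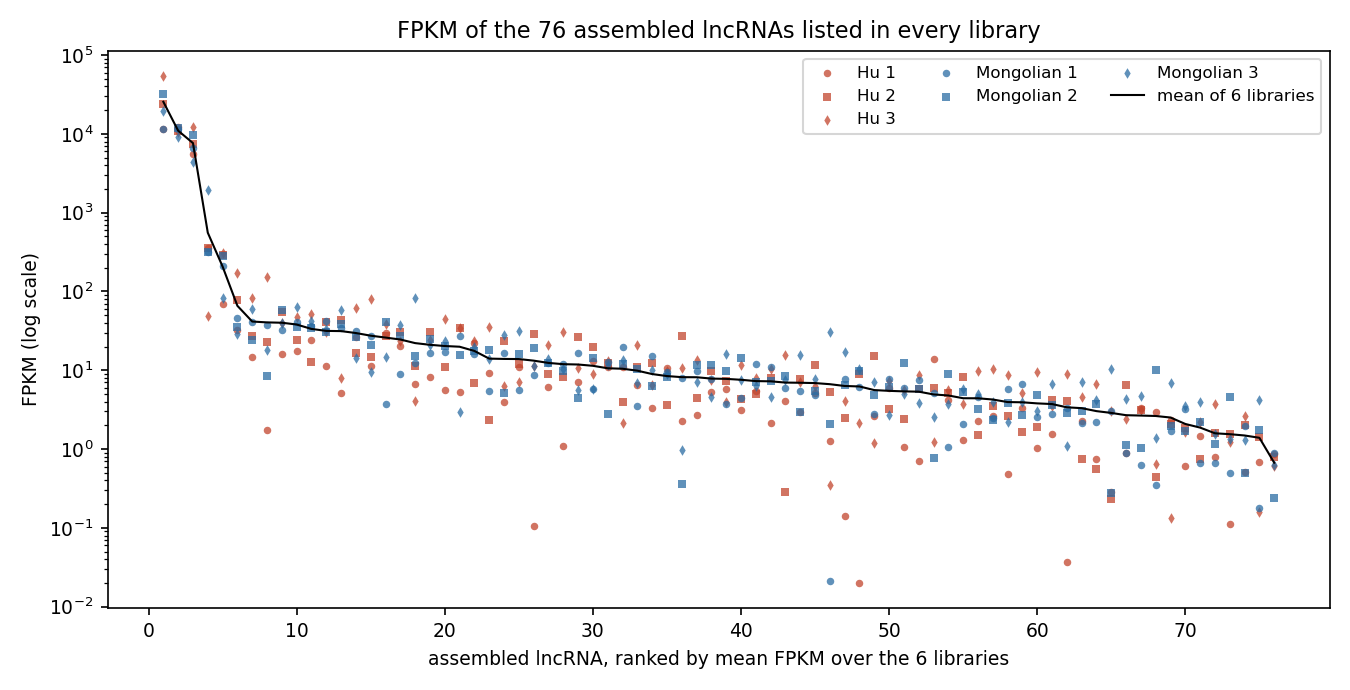
FPKM (log scale) of the 76 assembled lncRNAs listed in every library, ranked from left to right by their mean; each point is a library, red for Hu and blue for Mongolian, and the line is the mean of 6 libraries. A trio with means of 25519, 10971 and 7640 FPKM stands apart, the next 3 have 557, 207 and 65.7, and the curve then declines gradually from 41.5 FPKM to 0.671, with a few single libraries far below it.

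The step below the trio differed widely between libraries. The third most abundant lncRNA exceeded the fourth 2.68-, 21.3- and 4.7-fold in Hu 1, 2 and 3, and 20.96-, 29.8- and 2.24-fold in Mongolian 1, 2 and 3. In Hu 2 and all Mongolian libraries the fourth place belonged to MSTRG.37330, at 352 FPKM in Hu 2, against 318, 320.1 and 1946 in Mongolian 1, 2 and 3. In the other Hu libraries a lncRNA above 0 nowhere else took that place, MSTRG.49847 at 2069.9 FPKM in Hu 1 and MSTRG.2019 at 2219 FPKM in Hu 3.

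The 76 lncRNAs together held 85.96%, 96.7% and 92.3% of the summed lncRNA FPKM in Hu 1, 2 and 3, against 93.2%, 96.1% and 90.5% in Mongolian 1, 2 and 3. The share averaged 91.7 ± 5.41% over the Hu libraries and 93.3 ± 2.81% over the Mongolian libraries (SD, n = 3 each). The breeds differed by less than the SD of either. Nearly all of it lay in the trio, which held 83.4%, 93.4% and 90.4% in Hu and 89.3%, 93.6% and 82.9% in Mongolian. MSTRG.45400 alone held 33.1%, 53.1% and 63.7% in Hu, against 34.4%, 56.2% and 49.3% in Mongolian. MSTRG.14871, whose FPKM was so even, held 34.5%, 23.7% and 12.3% in Hu, against 34.9%, 20.7% and 22.7% in Mongolian. Its share thus varied more than its FPKM. MSTRG.23158 held 15.9%, 16.6% and 14.4% in Hu, against 19.9%, 16.7% and 10.9% in Mongolian.

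**Figure D2:**
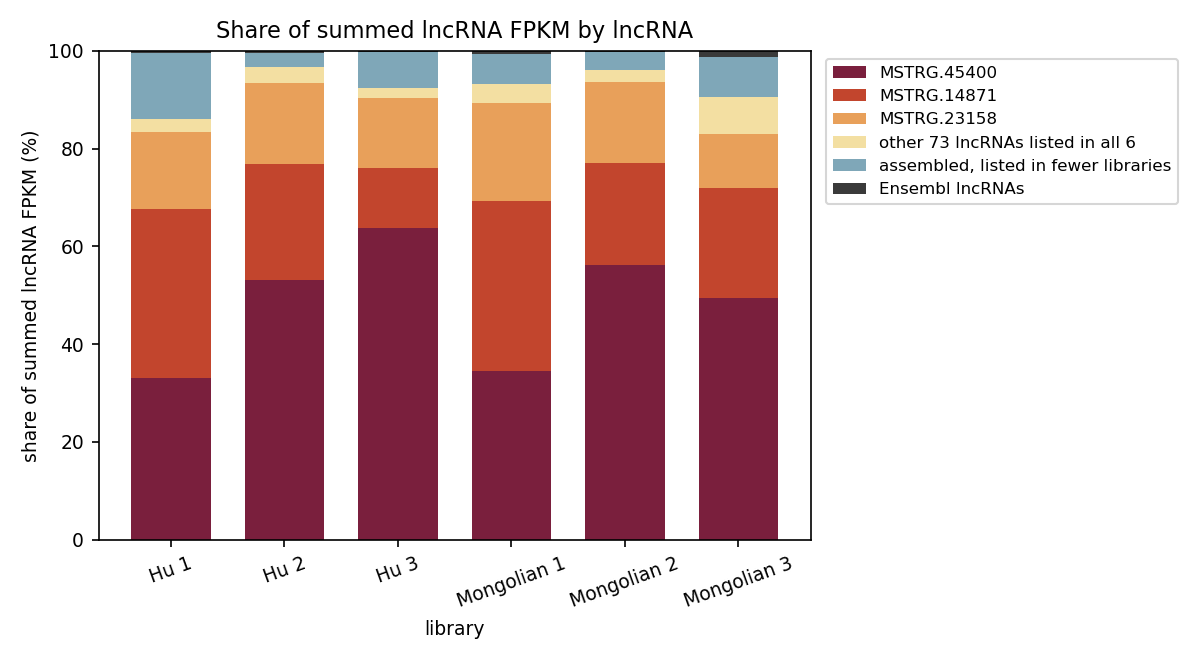
Share of each library's summed lncRNA FPKM (percent, stacked to 100%) held by the 3 most abundant assembled lncRNAs, by the other 73 listed in all 6 libraries, by assembled lncRNAs listed in fewer libraries and by Ensembl lncRNAs. The trio fills 82.9% to 93.6% of every bar, and the assembled lncRNAs listed in fewer libraries are widest in Hu 1, at 13.6%.

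The low share in Hu 1 stood beside lncRNAs listed in that library alone. Assembled lncRNAs above 0 in a single library held 12.2% of the sum in Hu 1, 0.72% in Hu 2 and 4.32% in Hu 3, against 1.99%, 0.84% and 3.21% in Mongolian 1, 2 and 3. A pair of them, MSTRG.49847 and MSTRG.22753 at 2008 FPKM, made up most of that part in Hu 1. The number of lncRNAs that would give the same concentration if all were equal (the inverse Simpson index) was 3.84, 2.73 and 2.26 in Hu, against 3.56, 2.58 and 3.23 in Mongolian.

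Below the trio, the other 73 held little of the sum. They added up to 877, 1492 and 1685 FPKM in Hu 1, 2 and 3, against 1311, 1419 and 3020.0 in Mongolian 1, 2 and 3. Without the trio in either sum, their share was 15.2%, 50.1% and 20.5% in Hu, against 36.7%, 38.9% and 44.3% in Mongolian. It averaged 28.6 ± 18.8% over the Hu libraries and 39.97 ± 3.9% over the Mongolian libraries (SD, n = 3 each), so the spread within Hu exceeded the difference. The dominance of the 76 thus rests on the trio.

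Most of the 76 were moderate in level. The median of their means was 7.81 FPKM, with quartiles of 4.18 and 20.5 FPKM; the 15 Ensembl lncRNAs listed in every library had a median of 3.04 FPKM. Of the 76, 6 averaged over 50 FPKM, 26 between 10 and 50, 20 between 5 and 10, and 24 no more than 5. A level of at least 1 FPKM in every library was met by 52 of them. Among the 10 most abundant lncRNAs of each library, 5, 8 and 6 belonged to the 76 in Hu, against 8, 7 and 7 in Mongolian. Of the 100 most abundant, 43, 37 and 39 did in Hu, against 34, 42 and 29 in Mongolian. These 100 came from 213 listed lncRNAs in Hu 1 and from 1304 in Hu 3. The 76 were 35.7% and 5.83% of those listed there, so the counts are not alike between libraries. Of the 76, 16 were among the 100 most abundant of all 6 libraries. Being listed everywhere was therefore not the same as being abundant everywhere.

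The remaining members of the 10 highest means spanned 38.1 to 557 FPKM. MSTRG.37330 had 356, 352 and 49.5 FPKM in Hu, against 318, 320.1 and 1946 in Mongolian. Both breeds held a library apart, Hu 3 far below and Mongolian 3 far above the other 4. MSTRG.22750 had 69.2, 288 and 305 FPKM in Hu, against 212, 286 and 83.4 in Mongolian. Its low libraries were Hu 1 and Mongolian 3. MSTRG.37859 had 32.5, 78.4 and 173 FPKM in Hu, against 45.9, 35.7 and 29.2 in Mongolian, with the Mongolian libraries close together and the Hu libraries wide. MSTRG.49826 ranged from 14.6 to 83.3 FPKM in Hu and from 24.5 to 59.5 in Mongolian. MSTRG.42242 ranged from 16.2 to 55.1 FPKM in Hu and from 32.03 to 57.6 in Mongolian, and MSTRG.41284 from 17.3 to 47.9 in Hu and from 35.1 to 63.02 in Mongolian. Each of these 3 was lowest in Hu 1.

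The members just inside the limit were close to 0 in a single library. MSTRG.31632 had 0.0203, 8.96 and 2.14 FPKM in Hu, against 6.12, 9.77 and 10.4 in Mongolian. MSTRG.50561 had 1.28, 5.28 and 0.35 FPKM in Hu, against 0.0215, 2.06 and 30.96 in Mongolian. MSTRG.19595 had 0.037, 4.07 and 8.9 FPKM in Hu, against 3.33, 2.9 and 1.09 in Mongolian. The 3 members under 0.1 FPKM anywhere were these. Just outside the limit, MSTRG.28402 was at 0 in Hu 1 but at 62.6 and 82.98 FPKM in Hu 2 and 3 and at 109, 68.4 and 72.7 in Mongolian. MSTRG.3487 was also at 0 in Hu 1, with 28.2 and 27.4 FPKM in Hu 2 and 3 and 11.4, 22.5 and 26.5 in Mongolian. MSTRG.35474 had 11.98, 14.3 and 40.5 FPKM in Hu, against 14.4, 25.3 and 0 in Mongolian. The rule thus left out lncRNAs whose level elsewhere was above that of most members.

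The 76 were not steady between libraries as a group. Their coefficient of variation (SD divided by mean FPKM over the 6 libraries) had a median of 0.645, with quartiles of 0.468 and 0.803, and the highest library exceeded the lowest by a median of 6.05-fold. Only 22 had a coefficient under 0.5, and 9 had one over 1. The ratio of highest to lowest was under 3 for 7 lncRNAs, over 10 for 26 and over 100 for 5. For levels of 2 to 50 FPKM, the median coefficient was 0.644 in 64 members, 0.525 in 9 Ensembl lncRNAs listed in all 6 libraries and 0.53 in 4153 genes of the gene table listed in all 6. These medians are set side by side without a test, since all 3 sets were picked by their values in these libraries. By level, the median was 0.726 in the 24 members averaging up to 5 FPKM, 0.597 in the 20 between 5 and 10, 0.621 in the 26 between 10 and 50 and 0.572 in the 6 above 50.

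MSTRG.14871 was the steadiest, with a coefficient of variation of 0.104. It was followed by MSTRG.17450, which had 10.5, 3.57 and 9.8 FPKM in Hu, against 9.4, 8.32 and 9.02 in Mongolian (0.296). Apart from Hu 2, its libraries lay close together. MSTRG.12374 had 21.96, 6.91 and 23.2 FPKM in Hu, against 16.1, 17.6 and 19.8 in Mongolian (0.333), and again Hu 2 was the low library. MSTRG.31428 ranged from 5.02 to 7.99 FPKM in Hu and from 6.38 to 11.8 in Mongolian, with a coefficient of 0.341. MSTRG.14004 ranged from 5.37 to 9.89 FPKM in Hu and from 4.56 to 11.8 in Mongolian (0.345).

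The least steady members each had a library far above the rest. MSTRG.50561, with the values given above, had a coefficient of 1.81 and peaked in Mongolian 3. MSTRG.10324 had 2.91, 0.436 and 0.64 FPKM in Hu, against 0.353, 10.03 and 1.4 in Mongolian, a coefficient of 1.43. Its peak lay in Mongolian 2. MSTRG.37057 had 1.77, 22.8 and 154 FPKM in Hu, against 37.95, 8.56 and 18.2 in Mongolian, so that Hu held both its lowest and its highest value (1.4). MSTRG.41787 had 0.287, 0.23 and 3.05 FPKM in Hu, against 3.04, 0.274 and 10.4 in Mongolian (1.36). MSTRG.23462 had 6.79, 11.3 and 4.03 FPKM in Hu, against 12.4, 15.3 and 82.8 in Mongolian (1.36). Of the 9 members with a coefficient over 1, 5 peaked in Mongolian 3, 2 in Mongolian 2, 1 in Hu 3 and 1 in Hu 2.

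**Figure D3:**
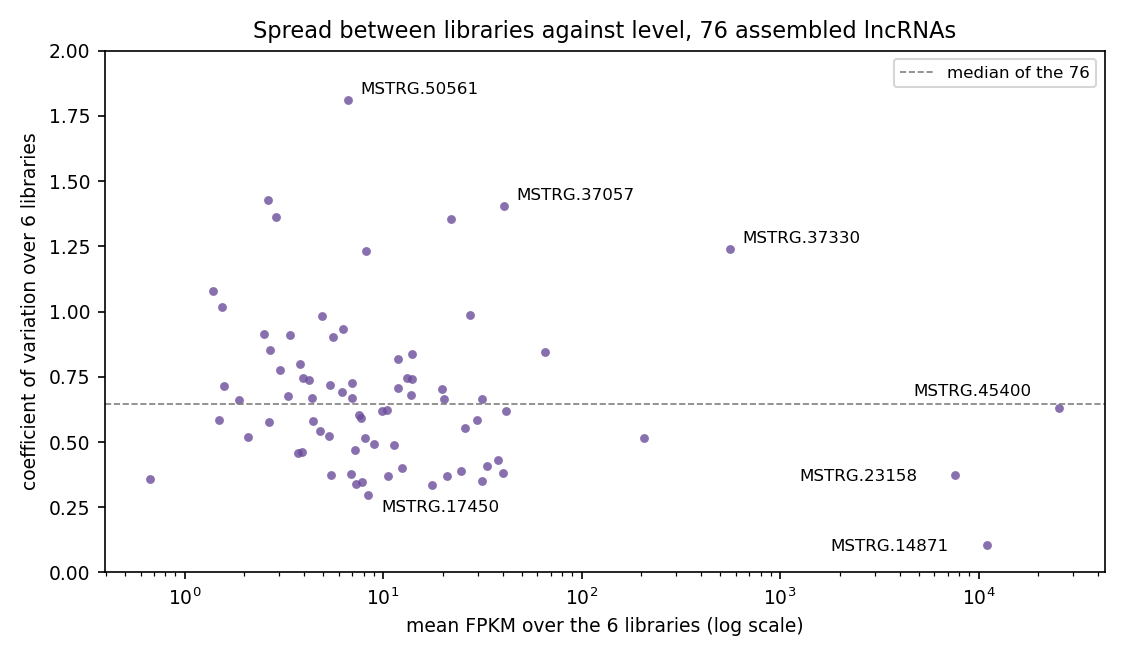
Coefficient of variation over the 6 libraries (vertical axis) against mean FPKM (log scale) of the 76 assembled lncRNAs, one point each, with the median of 0.645 as a dashed line. MSTRG.14871 lies lowest at 0.104 and high level, whereas MSTRG.50561 lies highest at 1.81.

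Which lncRNAs counted as steady depended on the scaling between libraries. After median-of-ratios scaling, rescaling to a common sum of lncRNA FPKM or quantile normalization, the median coefficient was 0.576, 0.587 and 0.577, against 0.645 as deposited. Of the 10 steadiest lncRNAs as deposited, 5, 4 and 2 were among the 10 steadiest under those 3 scalings. The coefficient of MSTRG.14871 was 0.432, 0.35 and 0.528 under them. That of MSTRG.23158 was 0.309, 0.189 and 0.195, against 0.375 as deposited, and it was the lowest of the 76 with a common sum. That of MSTRG.45400 was 0.456, 0.253 and 0.359, against 0.63 as deposited. For the trio the quantile values follow from the ranks alone, since each rank gets a single value and the trio fills ranks 1 to 3 in every library. The trio also makes up 82.9% to 93.6% of the sum used for the common sum. Its coefficients there are those of its shares, so that scale is not independent of the trio. The median-of-ratios factors came from the 91 lncRNAs above 0 in all 6 libraries, which include the 76. Median-of-ratios scaling is therefore not independent of the 76 either. MSTRG.14871 was therefore the steadiest of the 76 in FPKM as deposited, and neither after median-of-ratios scaling nor with a common sum.

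Libraries differed as wholes. Relative to each lncRNA's own mean log2 FPKM, the median deviation of the 76 was -0.72, 0.28 and 0.49 in Hu 1, 2 and 3, against 0.10, 0.25 and 0.26 in Mongolian 1, 2 and 3. Hu 1 was the lowest library for 28 of the 76 and the highest for 3, while Hu 3 was the lowest for 6 and the highest for 27. Mongolian 3 was highest for 20. The Hu library with the lowest median also listed the fewest lncRNAs (213) and the one with the highest listed the most (1304); the part of listing depth in these levels was not tested. Of the 5 members with a ratio over 100, 4 were lowest in Hu 1, and without Hu 1 the ratio was over 10 for 15 lncRNAs instead of 26, and over 100 for 1 instead of 5.

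**Figure D4:**
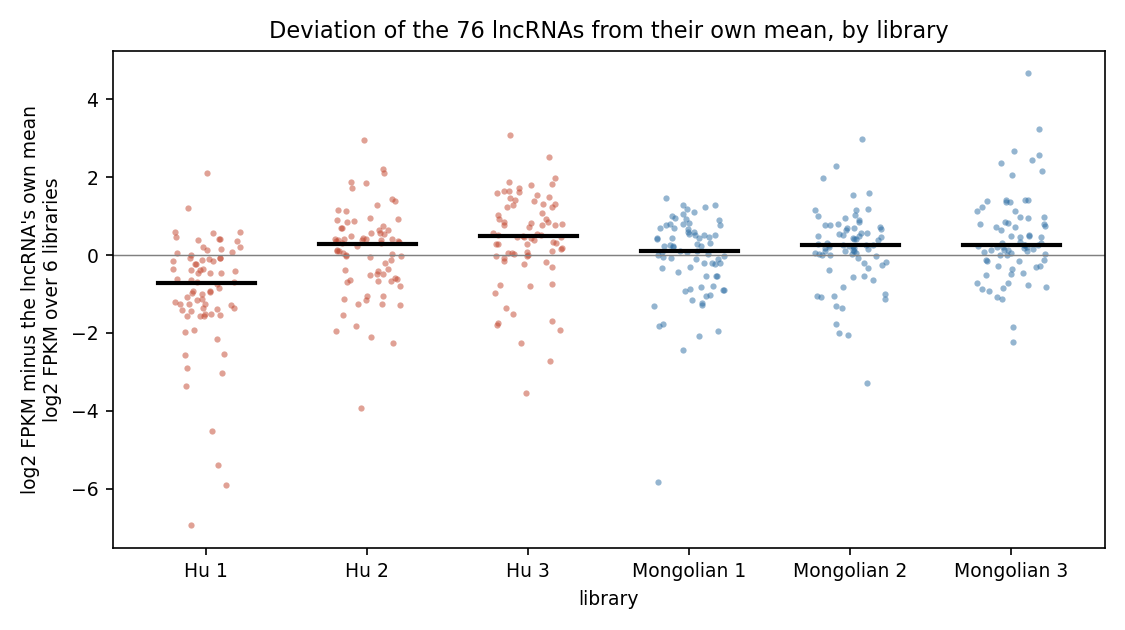
Deviation of each of the 76 lncRNAs from its own mean log2 FPKM over 6 libraries (vertical axis), by library, red for Hu and blue for Mongolian, with the median as a black bar. The Hu bars lie at -0.72, 0.28 and 0.49, outside the narrow Mongolian range of 0.10 to 0.26, and the longest lower tail belongs to Hu 1.

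The spread was also compared within breeds. In FPKM as deposited, the median coefficient of variation was 0.714 within Hu and 0.463 within Mongolian, each over 3 libraries. It was larger within Hu for 49 of the 76, with no count over other lncRNAs beside it. The median-of-ratios factors were 0.601, 1.1 and 1.39 in Hu 1, 2 and 3, against 1.17, 1.12 and 1.23 in Mongolian 1, 2 and 3. Such shifts of whole libraries enter each of these coefficients, and their part in the spread within Hu was not tested. A pair was chosen after their values were seen. MSTRG.46860 had the smallest coefficient within Hu as deposited, 0.0189, at 3.27, 3.16 and 3.17 FPKM, against 0.632, 1.03 and 4.7 in Mongolian. MSTRG.17450, above, had the smallest within Mongolian, 0.0615. Its coefficient within Hu was 0.48, under the median for Hu, whereas that of MSTRG.46860 within Mongolian was 1.06. Across the 76 lncRNAs, Spearman correlations of FPKM were 0.645 to 0.665 between Hu libraries, 0.681 to 0.745 between Mongolian libraries and 0.556 to 0.782 between breeds; they are taken across lncRNAs, which are not replicates. Without the trio, Pearson correlations of log2 FPKM had a median of 0.56 for pairs of Hu libraries, 0.68 for pairs of Mongolian libraries and 0.64 for mixed pairs.

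The design also asks whether Hu and Mongolian ovaries differed in these lncRNAs. None of the 76 passed the test. The 417 lncRNAs that reached 0.1 FPKM in 3 or more libraries were tested on log2(FPKM + 0.1) with limma, and all 76 were among them; that scale understates differences of low lncRNAs. A call was a Benjamini-Hochberg adjusted p under 0.05. Of the 417, 0 (0%) were called, and 25 (6%) had an unadjusted p under 0.05, 3 of them higher in Hu; of the 76, 0 were called and 0 had an unadjusted p under 0.05. Among the 76 no limma adjusted p was below 0.747. Membership asked for a value above 0 in both breeds, so a lncRNA missing from a breed could not be a member, while 326 of the 417 were at 0 in at least 1 library.

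The log2 differences, Hu minus Mongolian, ranged from -2.81 to 2.48 over the 76, with a median of -0.35, against a median of -1.01 over all 417. By sign, 50 of the 76 (65.8%) were lower in Hu, against 306 of the 417 (73.4%). The split depended on the setting: 46 of the 76 and 218 of the 417 were higher in Hu with quantiles equalized, 40 of the 76 without Hu 1, and 21 of the 76 with a common sum per library. The median 95% confidence interval reached 2.43 to either side, and the interval included 0 for each of the 76. With libraries scaled by the median of ratios the median of the 76 was -0.081, with quantiles equalized it was 0.16, and with a common sum per library it was -0.60. The median-of-ratios factors came from the 91 lncRNAs above 0 in all 6 libraries, which include the 76. A median of the 76 near 0 under that scaling therefore follows largely from its construction. It was 0.13 without Hu 1, -0.52 without Hu 3 and 0.070 without Hu 1 and Hu 3 together. With quantiles equalized, the median of all lncRNAs tested was 0.089. All 3 Hu values lay below all 3 Mongolian values in 3 of the 76 (3.95%), against 38 of the 417 (9.11%), and above them in 0 of the 76, against 7 of the 417 (1.68%).

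The members with the smallest p illustrate the size of the spread. MSTRG.37330, with the values given above, had a log2 difference of -1.67 ± 0.83 (SE), with a limma adjusted p of 0.747, and without Hu 3 the difference was -0.72. MSTRG.51693 had 0.143, 2.45 and 4.05 FPKM in Hu, against 7.74, 6.54 and 16.98 in Mongolian. All its Hu values were below all its Mongolian values, with a log2 difference of -2.81 ± 1.41 and the same limma adjusted p of 0.747; without Hu 1 the difference was -1.56. MSTRG.21248 had 2.27, 26.95 and 10.6 FPKM in Hu, against 7.93, 0.359 and 0.971 in Mongolian. Its breeds overlapped through Hu 1 and Mongolian 1, and the log2 difference was 2.48 ± 1.47 (limma adjusted p = 0.883); it was 1.59 without Mongolian 2 and 3.65 without Mongolian 1. MSTRG.37859, the sixth most abundant, had a log2 difference of 1.07 ± 0.81 (limma adjusted p = 0.92), which was 0.48 without Hu 3.

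The other members without overlap were MSTRG.23462, described above, and MSTRG.11553, which had 10.9, 4.0 and 2.17 FPKM in Hu, against 19.9, 12.1 and 13.6 in Mongolian. Both were named after their values were seen, and their limma adjusted p was 0.879 and 0.907. The trio showed small differences relative to its spread. The log2 difference was 0.35 ± 0.52 for MSTRG.45400, 0.035 ± 0.40 for MSTRG.14871 and 0.29 ± 0.47 for MSTRG.23158, with limma adjusted p of 0.92, 0.962 and 0.92. The 95% confidence interval of MSTRG.14871, the narrowest of the 76, ran from -0.81 to 0.88. The sign changed for MSTRG.45400 without Hu 3 (-0.22) or Mongolian 1 (-0.029), for MSTRG.14871 without Hu 1 (-0.028) or Mongolian 3 (-0.091), and for MSTRG.23158 without Hu 3 (-0.019) or Mongolian 3 (-0.00062).

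**Figure D5:**
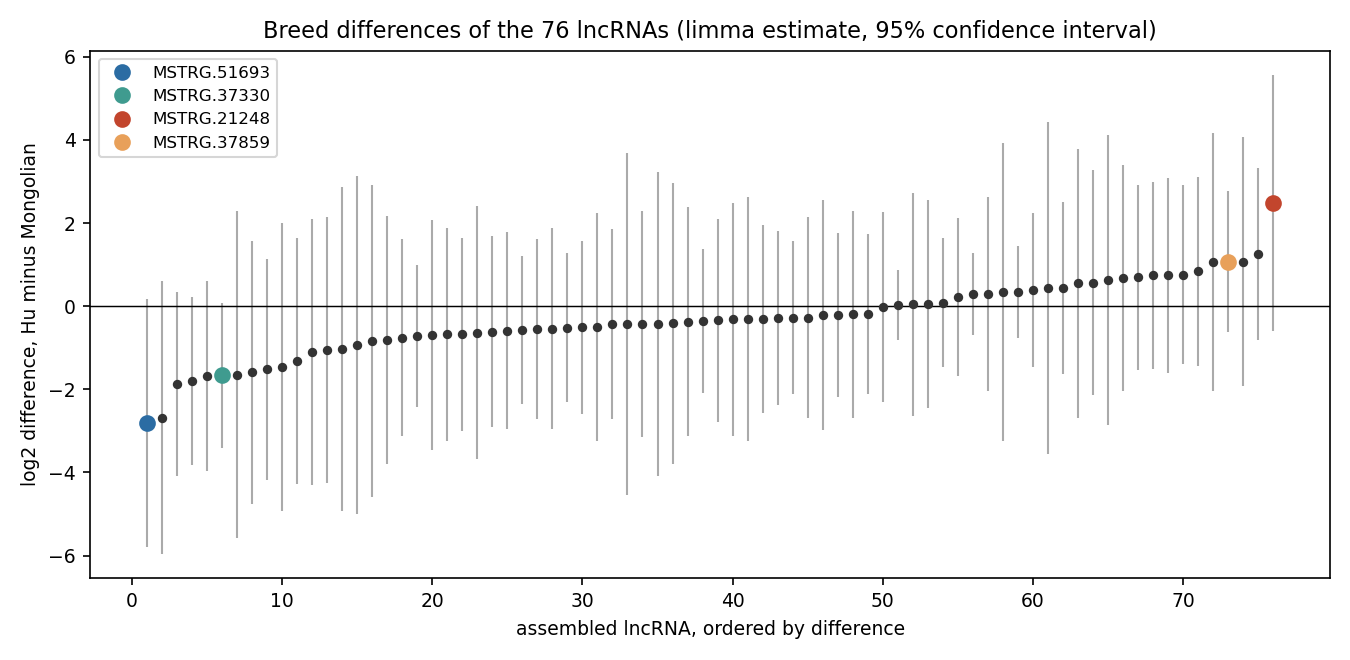
Log2 difference (Hu minus Mongolian) of the 76 lncRNAs on the log2(FPKM + 0.1) scale, ordered from lowest to highest, with 95% confidence intervals from limma as bars; the 4 coloured points are the 2 smallest p in each direction. Estimates run from -2.81 to 2.48, and every interval includes 0.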

How the data were processed

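Expression was measured in 6 ovary libraries, 3 of Hu and 3 of Mongolian sheep; groups and replicate numbers come from the sample titles, and table columns were matched by the codes in the sample descriptions. The authors deposited FPKM values for lncRNAs and, in a separate table, for genes, per the file headers. The labels' protocols name a column RNA kit and a SMARTer library of polyadenylated RNA. Neither the labels nor the files name the aligner, the assembler, the build or any filter, and depth is unknown. Such libraries are amplified by PCR, so values near 0 rest on few molecules, and an FPKM falls when another transcript takes more of a library.

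From the deposited FPKM, shares, ranks and coefficients of variation were computed in Python 3.11.15 with pandas 2.3.3. Breeds were compared with limma 3.58.1 in R 4.3.3 (eBayes with a trend, two-sided, all 6 libraries), tested on simulated data first. The planted differences were larger than any estimated for the 76, so that run cannot show whether differences of their size would be found. No 2 libraries held an equal value among the 76 lncRNAs. The members, the tests and the rule for named lncRNAs were chosen with earlier results of these data known. The rule took the 10 highest means, the 5 lowest and the 5 highest coefficients of variation among means of at least 1 FPKM, the 2 smallest p in each direction, the 3 lowest minima and the 3 most abundant lncRNAs at 0 in 1 library. Of 17 well-known lncRNA genes looked for by symbol in the gene table, 0 were found. The separately deposited lncRNAs carry no symbol besides their identifier and could not be searched this way. The search therefore cannot show whether those genes were absent from the ovaries.

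Alternatives were other pseudocounts, filters and scalings, the replicate number as a block, array weights, other limits for listing, FPKM capped at 100 and leaving out libraries.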

Additional observations from a re-analysis of the deposited data

How the results depend on the processing

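No lncRNA was called by limma under any of the 18 other settings, with 3 to 65 lncRNAs and 0 to 5 of the 76 at an unadjusted p under 0.05 and a lowest adjusted p of 0.0597 over all lncRNAs and 0.0903 over the 76. The setting with Hu 1 and Hu 3 left out keeps 1 Hu library, assumed to vary like the others. With the replicate block 0 lncRNAs and 0 of the 76 were called; same-numbered libraries did not deviate together (correlations of -0.0093, -0.13 and -0.23), so the numbers were not taken as pairs.

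The median log2 difference of the 76 was 0.16 after quantile normalization and -0.60 with a common sum per library, and ran from -0.52 to 0.13 with a library left out. Signs were followed singly only for the trio and the members with the 2 smallest p in each direction. Of these, the differences that changed sign were those of MSTRG.45400 (-0.22 to 0.90 with a library left out), MSTRG.23158 (-0.019 to 0.57) and MSTRG.14871 (-0.091 to 0.10 with a library left out, -0.22 with quantiles equalized, -0.24 with a common sum per library and -0.0086 without Hu 1 and Hu 3). Other members changed sign too, since 26 of the 76 were higher in Hu in the main fit and 46 with quantiles equalized. The number of assembled lncRNAs listed in all libraries kept was 77 to 125 with a library left out, the highest without Hu 1, 73 with a limit of 0.1 FPKM and 61 with one of 0.5 FPKM.

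The share of the summed FPKM was 83.6% in Hu and 87.3% in Mongolian without MSTRG.45400, 28.6% and 39.97% without the trio (a setting chosen after seeing the data), 20.6% and 24.4% without the 5 most abundant, and 42.2% and 34.9% with FPKM capped at 100. Each of these settings changes what enters the sums, so these shares are not on the same base as the main ones. The median coefficient of variation stayed between 0.547 and 0.669.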
